A study of Mus musculus with 5 samples.

Results

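The genes described are 10 members of the transforming growth factor-β (TGF-β) family and of its regulation outside the cell, chosen by symbol from the 27998 genes annotated in the deposited tables. They are the TGF-β ligands *Tgfb1*, *Tgfb2* and *Tgfb3*, the bone morphogenetic protein (BMP) ligands *Bmp2*, *Bmp4* and *Bmp7*, the inhibin β subunits *Inhba* and *Inhbb* that build the activins, the BMP3-related ligand *Gdf10*, and *Fst*, which encodes the antagonist follistatin. All 10 were detected, with totals over the 5 libraries between 444 unique molecular identifiers (UMIs) for *Inhba* and 15273 for *Fst*.

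Ligands of this family are secreted as dimers and bind pairs of serine/threonine kinase receptors, which phosphorylate SMAD proteins that enter the nucleus and regulate transcription. TGF-βs and activins act mainly through SMAD2 and SMAD3, and BMPs through SMAD1, SMAD5 and SMAD9. Follistatin binds activins tightly, and some BMPs more weakly, and keeps them from their receptors. In the mammary gland, TGF-β is known as a restraint on ductal growth, and BMP and activin signals pass between the epithelium and the stroma.

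Single-cell RNA-seq was analyzed in 5 libraries of the fourth mammary glands of ovariectomized female BALB/cj mice, a model of the menopausal gland, with 1 library per group. All mice were 30 weeks old by the labels and were treated for 1 week from 20 weeks after ovariectomy. The OVX group received the DMSO vehicle, OVX_E2 received 17β-estradiol (E2, 1 µg per animal daily), and OVX_E2_P4 received E2 with progesterone (P4, 0.1 mg per animal daily), all on control food that held DMSO. OVX_E2_PBDE and OVX_E2_P4_PBDE received the same hormones and food with polybrominated diphenyl ethers (PBDEs), a class of flame retardants. The food held 7.1 mg/kg of BDE-47, 0.9 of BDE-153 and 0.4 of BDE-100. The glands were dissociated and loaded without a sort for a cell type. How many mice contributed to a library was not given in the sources used here.

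The libraries held 2233 to 3536 barcodes and 19982067 to 42012988 UMIs, and 80 of 14263 barcode sequences occurred in more than 1 library. The composition set OVX apart, since fibroblast-like cells were 82.6% of its cells and 30.6% to 54.4% of the cells elsewhere. Cells were named from clusters and markers as basal-like, luminal hormone-sensing-like (L-Hor), luminal alveolar-like (L-Alv), fibroblast-like, endothelial-like and hematopoietic-like, and these names are used below without the suffix. The endothelial cluster held pericytes as well, 25 cells by markers beside 204 endothelial cells. The labels name no batch. A number in the names of the deposited files is consecutive for both PBDE libraries and lies apart from those of the other 3, and what it marks was not given in the sources used here. The basal cells of both PBDE libraries carried more RNA of luminal keratin and *Epcam* markers, at 4327 and 3941 counts per 1000000 UMIs (CPM) against 1272 to 1813 in the other libraries.

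Levels are given in CPM, for which the UMI sums of a compartment were divided by its total UMIs. Intervals are exact 95% Poisson intervals for levels and conditional binomial intervals for ratios, and they cover counting error only. With 1 library per group, no difference was tested against the variation between animals. Levels are compared within a gene only. Since the libraries are of different conditions, their range over a compartment holds both condition and preparation.

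The genes differed in the compartment where they were highest over the summed libraries. *Tgfb1* was highest in hematopoietic cells, *Tgfb2*, *Bmp2*, *Bmp4*, *Bmp7* and *Gdf10* in fibroblasts, *Tgfb3* in L-Alv, *Inhba* in L-Hor, *Inhbb* in endothelial cells, and *Fst* in basal cells. For 7 of the 10 genes the same compartment was highest in all 5 libraries, a property that 33.3% of the 12741 genes with at least 100 UMIs had. For *Tgfb2*, *Tgfb3*, *Inhba* and *Fst*, the lowest library of the leading compartment was above the highest library of every other compartment, which held for 20.9% of those genes. For *Inhba* this includes compartments with no UMI in a library, where a low level could not be seen.

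**Figure D1:**
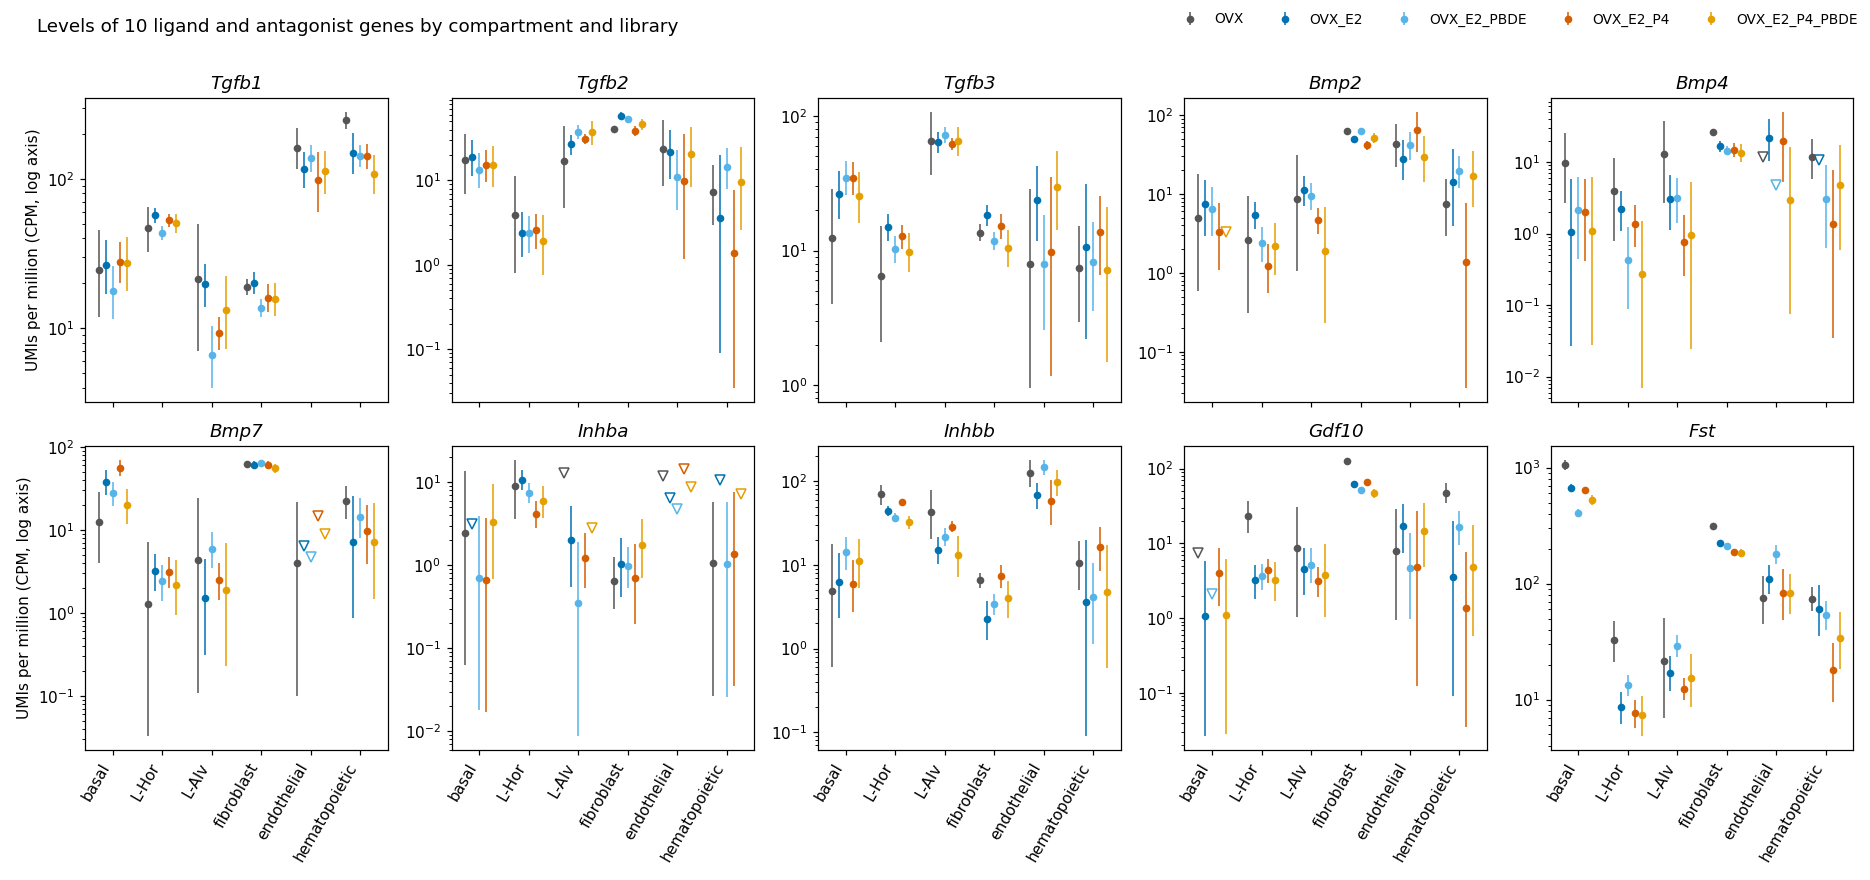
Level of each of the 10 genes (CPM on a log axis) in 6 compartments, with a point for each of the 5 libraries and its exact 95% Poisson interval, which covers counting error only. Open triangles stand at the level of 3 UMIs where no UMI was counted. The leading compartment differs between genes, for example L-Alv for *Tgfb3* (61.8 to 72.5 CPM) and L-Hor for *Inhba* (4.21 to 10.8 CPM).

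*Tgfb1* (ENSMUSG00000002603, chromosome 7, 25687002 to 25705077 on the plus strand of mm10) encodes the TGF-β best known from immune regulation. In hematopoietic cells it stood at 247 CPM in OVX, 149.7 in OVX_E2, 143 in OVX_E2_P4, 142 in OVX_E2_PBDE and 108 in OVX_E2_P4_PBDE, and OVX was above the interval of each of the others. Split by markers, myeloid cells had 194 CPM (interval 176–213, 347 cells), T and NK cells 119 (95.5–147, 116 cells), and B and plasma cells 70.3 (38.4–118, 24 cells). The mix of these cells differed between libraries. OVX held 92 myeloid and 58 T and NK cells, and OVX_E2 held 36 and 0. Its part in the differences between libraries was not tested. The endothelial level was 97.8 to 162 CPM, and in OVX_E2_P4_PBDE it was 113 against 108 in hematopoietic cells, so the order of these compartments was not the same in every library. The endothelial levels rest on 20 to 87 UMIs. In OVX_E2, OVX_E2_P4 and OVX_E2_PBDE the intervals of both compartments overlapped as well. Among epithelial cells, L-Hor was the highest in each library, at 43.6 to 57.3 CPM, above basal cells at 17.7 to 28.0 and L-Alv at 6.59 to 21.5. Fibroblasts had 13.7 to 20.2 CPM. Because of their number, L-Hor cells supplied 40.0% of the *Tgfb1* UMIs in the named compartments, and hematopoietic cells 18.7%.

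*Tgfb2* (ENSMUSG00000039239, chromosome 1, 186622792 to 186705989, minus strand) was a gene of fibroblasts and of L-Alv. Its fibroblast level was 40.5 CPM in OVX, 58.5 in OVX_E2, 39.0 in OVX_E2_P4, 53.1 in OVX_E2_PBDE and 46.6 in OVX_E2_P4_PBDE. L-Alv cells were next over the summed libraries, at 17.2 to 37.5 CPM, with the lowest value in OVX, where 4 UMIs were counted in 32 cells. Endothelial cells had 9.78 to 23.7 CPM and basal cells 13.5 to 19.0, and in OVX their levels, 23.7 and 17.3 CPM, were not below the L-Alv one, within counting error of these 4 to 7 UMIs. In L-Hor the level was 1.91 to 3.88 CPM, so L-Alv was above L-Hor in each library. The intervals of fibroblasts and L-Alv overlapped in OVX, OVX_E2_P4 and OVX_E2_P4_PBDE.

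*Tgfb3* (ENSMUSG00000021253, chromosome 12, 86056745 to 86079041, minus strand) marked L-Alv at nearly the same level in every library. It had 64.6 CPM in OVX, 63.4 in OVX_E2, 61.8 in OVX_E2_P4, 72.5 in OVX_E2_PBDE and 64.7 in OVX_E2_P4_PBDE, and the 5 intervals overlapped. Basal cells were next over the summed libraries, at 12.3 to 34.7 CPM, and L-Hor cells had 6.47 to 15.0. Fibroblasts had 10.5 to 18.2 CPM and endothelial cells 7.89 to 29.6. In OVX the fibroblasts (13.6 CPM), and in OVX_E2_P4_PBDE the endothelial cells (29.6 CPM, 10 UMIs), were above the basal cells. After each cell was thinned to 3000 UMIs, 14.0% to 28.1% of L-Alv cells had a UMI of *Tgfb3*, against 36.9% to 53.7% without thinning. The protein-coding gene *Ttll5* overlaps *Tgfb3* on the opposite strand.

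*Bmp2* (ENSMUSG00000027358, chromosome 2, 133552159 to 133562885, plus strand) was expressed mainly in mesenchymal and vascular compartments. Fibroblasts had 61.9 CPM in OVX, 49.1 in OVX_E2, 41.5 in OVX_E2_P4, 62.6 in OVX_E2_PBDE and 51.1 in OVX_E2_P4_PBDE. Endothelial cells had 27.9 to 63.6 CPM and were above fibroblasts in OVX_E2_P4, with 13 UMIs and an interval of 33.9–109. The epithelial levels were lower, between 0 and 11.1 CPM, and L-Alv had the highest of them in 4 of the 5 libraries.

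*Bmp4* (ENSMUSG00000021835, chromosome 14, 46383520 to 46390669, minus strand), a ligand of embryonic mammary bud patterning, was highest in fibroblasts, at 26.6 CPM in OVX (24.0–29.5) and 13.5 to 16.6 CPM in the libraries with E2. OVX was thus above the interval of each other library. Endothelial cells were above fibroblasts in OVX_E2 (10 UMIs, 21.5 CPM) and OVX_E2_P4 (4 UMIs, 19.6 CPM), in both within counting error. In OVX_E2, 6.82% of the 44 endothelial cells had a *Bmp4* UMI. Endothelial cells had no UMI in OVX or OVX_E2_PBDE, where 3 counts would be 11.8 and 4.76 CPM. Single compartments outside the fibroblasts held at most 11 *Bmp4* UMIs in a library.

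*Bmp7* (ENSMUSG00000008999, chromosome 2, 172868012 to 172940321, minus strand) was the steadiest of the fibroblast genes across conditions. Its fibroblast level was 61.6 CPM in OVX, 61.5 in OVX_E2, 61.2 in OVX_E2_P4, 64.0 in OVX_E2_PBDE and 55.4 in OVX_E2_P4_PBDE, with overlapping intervals. Basal cells were next over the summed libraries, at 12.3 CPM in OVX, 37.9 in OVX_E2, 56.6 in OVX_E2_P4, 27.6 in OVX_E2_PBDE and 19.8 in OVX_E2_P4_PBDE. The basal values spread widely, and they rest on 5 to 85 UMIs. Hematopoietic cells had 7.13 to 22.2 CPM, and the highest of these values, in OVX, was above the basal level there. It rests on 21 UMIs, 16 of them in T and NK cells, and the basal level on 5. Hematopoietic cells of OVX also held fibroblast marker RNA, as given below. The part of fibroblast RNA in this value was not tested. L-Hor, L-Alv and endothelial cells stayed between 0 and 5.90 CPM.

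The activin β subunits differed in their compartments. *Inhba* (ENSMUSG00000041324, chromosome 13, 16011851 to 16031621, plus strand), the subunit of activin A, was a rare transcript of L-Hor, at 9.06 CPM in OVX, 10.8 in OVX_E2, 4.21 in OVX_E2_P4, 7.45 in OVX_E2_PBDE and 6.01 in OVX_E2_P4_PBDE. L-Hor cells held 72.6% of its UMIs in the named compartments, and 167 of the 444 UMIs in all barcodes. The latter include the multiplet and proliferating luminal clusters, which belong to no named compartment. No other named compartment passed 3.30 CPM, and no UMI was counted in the endothelial cells of any library. There, 3 counts would be 1.59 CPM over the summed libraries. In OVX, OVX_E2_P4 and OVX_E2_P4_PBDE alone, 3 endothelial counts would be above the L-Hor level, so the order of these compartments is not resolved there.

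*Inhbb* (ENSMUSG00000037035, chromosome 1, 119415465 to 119422248, minus strand), the subunit of activin B, was highest in endothelial cells, at 126 CPM in OVX, 68.7 in OVX_E2, 58.7 in OVX_E2_P4, 147 in OVX_E2_PBDE and 97.8 in OVX_E2_P4_PBDE. The cells with endothelial markers had 113 CPM and the pericytes 45.3 (8 UMIs). In L-Hor the level was 69.9, 44.7, 56.2, 37.0 and 32.2 CPM in the same order of libraries, and in L-Alv it was 43.0, 15.1, 28.8, 21.9 and 13.3. In OVX_E2_P4, endothelial cells and L-Hor did not differ beyond counting error. The luminal order L-Hor above L-Alv held in all 5 libraries. In both luminal compartments the highest value was in OVX, and the lowest was in OVX_E2_P4_PBDE. These values rest on 54 and 118 UMIs in L-Hor and on 10 and 14 in L-Alv. Each was within counting error of the value nearest to it. Basal cells had 4.93 to 14.2 CPM, and fibroblasts 2.24 to 7.30.

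*Gdf10* (ENSMUSG00000021943, chromosome 14, 33923587 to 33937983, plus strand) was a fibroblast gene, with 93.3% of its UMIs in the named compartments there. Its fibroblast level was 125 CPM in OVX (119–131), 61.6 in OVX_E2, 65.5 in OVX_E2_P4, 51.5 in OVX_E2_PBDE and 46.8 in OVX_E2_P4_PBDE, so OVX stood well above the 4 libraries with E2.

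*Fst* (ENSMUSG00000021765, chromosome 13, 114452290 to 114458951, minus strand) had its highest level in basal cells, the myoepithelial layer that surrounds the luminal cells. It had 1060.02 CPM in OVX, 666 in OVX_E2, 642 in OVX_E2_P4, 405 in OVX_E2_PBDE and 526 in OVX_E2_P4_PBDE. Fibroblasts had 314, 225, 187, 212 and 184 CPM in the same order, with OVX again the highest. After thinning to 3000 UMIs, 55% to 75% of basal cells and 30.7% to 48.1% of fibroblasts had a UMI of *Fst*, against 1.58% to 4.35% of L-Hor cells. Fibroblasts held 73.0% of its UMIs in the named compartments and basal cells 21.1%. The endothelial level was 75.0 to 179 CPM.

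Fibroblast RNA was counted in the barcodes of other compartments too, and its amount differed between libraries. The 7 fibroblast markers (*Col1a1*, *Col1a2*, *Col3a1*, *Pdgfra*, *Lum*, *Dpt* and *Dcn*) had, in L-Hor cells, 9.11% of their fibroblast level in OVX, 5.14% in OVX_E2, 3.71% in OVX_E2_P4, 6.87% in OVX_E2_PBDE and 5.92% in OVX_E2_P4_PBDE. The same percentages of the fibroblast level of *Fst* are, in the same order, 28.6, 11.6, 6.94, 14.6 and 10.9 CPM. The *Fst* levels counted in L-Hor were 32.3, 8.59, 7.60, 13.3 and 7.38 CPM, and their intervals held these values in every library but OVX_E2_P4_PBDE, where the count was lower. *Tgfb2* in L-Hor, at 1.91 to 3.88 CPM, lay beside 1.45 to 3.69 CPM, and its interval was above the marker value in OVX_E2_P4 (19 UMIs).

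L-Alv differed from L-Hor in this respect for *Tgfb2*. *Tgfb2* in L-Alv stood at 17.2, 26.7, 31.0, 37.5 and 37.1 CPM, where the marker percentages of its fibroblast level were 2.67, 1.94, 1.03, 2.33 and 2.29. *Tgfb2* in L-Alv was therefore above that level in every library. The interval of *Fst* was above its value at the marker percentage in OVX_E2 (17.1 against 7.46 CPM), OVX_E2_P4 and OVX_E2_PBDE. It was not in OVX (21.5 against 20.7) or OVX_E2_P4_PBDE (15.2 against 9.07). These percentages cover fibroblast RNA only. *Fst* was highest in basal cells, at 594 CPM over the summed libraries, and the part of basal RNA in its L-Alv levels was not tested. In hematopoietic cells the markers reached 31.8% of their fibroblast level in OVX, and from 4.19% to 23.6% elsewhere. The *Gdf10* level there in OVX, 47.5 CPM, lay beside 39.7 CPM at the marker percentage, and 26 of the 45 UMIs were in T and NK cells.

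**Figure D2:**
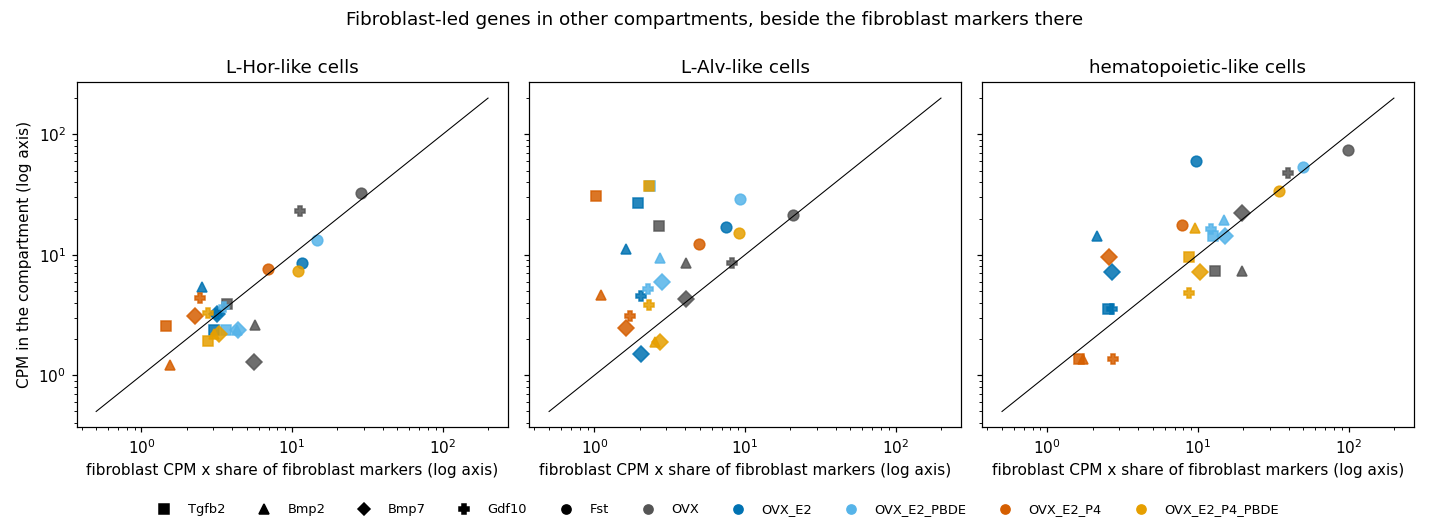
Level of 5 genes (CPM, log axis) in L-Hor, L-Alv and hematopoietic cells against the fibroblast level multiplied by the share of the fibroblast markers in that compartment (log axis), with 1 point per gene and library. The line marks equal values. *Fst* in L-Hor lies near the line (32.3 against 28.6 CPM in OVX), and *Tgfb2* in L-Alv lies above it (31.0 against 1.03 CPM in OVX_E2_P4).

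The fibroblasts were divided further, since they led 5 of the 10 genes. The 7260 fibroblasts of all libraries, clustered together with the family and pathway genes left out, gave 5 clusters of 373 to 2758 cells. Cluster 0 was led by *Cxcl10* and *Ccl2*, cluster 1 by *Cxcl14* and *Vtn*, cluster 2 by *Mrgprg* and *Itgb7*, cluster 3 by *Mfap4* and *Igfbp2*, and cluster 4 by the hemoglobin genes *Hba-a2* and *Hbb-bs*. The clusters followed the libraries in part. Cluster 2 was 47.1% of the OVX fibroblasts and 0.339% to 6.48% of the others, cluster 1 was 44.5% against 8.14% to 14.0%, and cluster 0 was 3.04% against 45.5% to 68.6%.

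*Bmp7* and *Bmp2* were high in the same clusters. *Bmp7* had 87.3 CPM in cluster 0 and 106 in cluster 2, against 5.25 in cluster 1 and 17.9 in cluster 3. *Bmp2* had 81.1 CPM in cluster 0 and 96.1 in cluster 2, against 25.5 in cluster 1 and 8.60 in cluster 3. They parted in cluster 4, where *Bmp7* had 69.9 CPM and *Bmp2* 18.9.

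*Gdf10* and *Fst* were instead highest in cluster 1. *Gdf10* had 202 CPM in cluster 1, 83.2 in cluster 3, 49.0 in cluster 2 and 30.9 in cluster 0. *Fst* had 435 CPM in cluster 1, 239 in cluster 2, 202 in cluster 0, 166 in cluster 3 and 83.1 in cluster 4. Within cluster 1, *Gdf10* was 223 CPM in OVX, 159 in OVX_E2, 192 in OVX_E2_P4, 158 in OVX_E2_PBDE and 117 in OVX_E2_P4_PBDE, which are all above the level of every other cluster in the same library.

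Clusters were also made within each library. In all 5 libraries, the fibroblast cluster with the most *Pi16*, a marker of adventitial fibroblasts, had the highest *Bmp7* and the highest *Bmp2* of the fibroblast clusters. *Bmp7* there was 106 CPM in OVX, 91.6 in OVX_E2, 96.1 in OVX_E2_P4, 103 in OVX_E2_PBDE and 72.2 in OVX_E2_P4_PBDE. *Gdf10* was the lowest in that cluster in 4 of the 5 libraries. The cluster with the most *Mfap4* had the lowest *Tgfb2* and *Bmp2*, and the highest *Tgfb3*, in all 5 libraries. OVX_E2_P4_PBDE had only 2 fibroblast clusters, so that there both statements describe the same difference. In OVX the *Tgfb3* level rests on 8 UMIs, at 17.5 CPM (7.56–34.5) against 15.9 in the next cluster, within counting error. For *Tgfb3* in OVX_E2_P4 and OVX_E2_P4_PBDE the intervals of the *Mfap4* cluster and the next overlapped too. The same held for *Bmp2* in OVX and OVX_E2 and for *Tgfb2* in OVX. For the *Pi16* cluster, the *Bmp7* interval in OVX_E2_P4 (85.3–108) overlapped that of the next cluster (48.5–86.7).

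**Figure D3:**
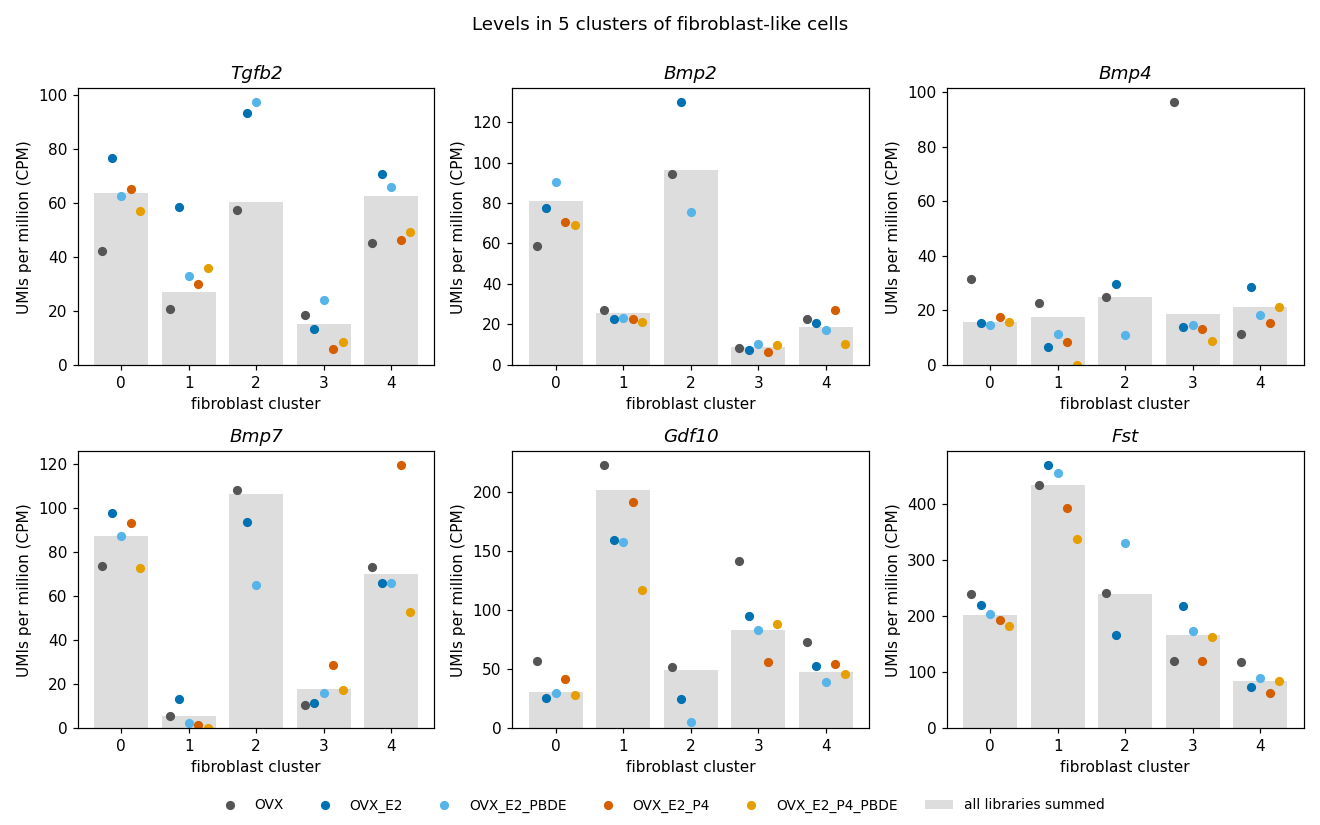
Level of 6 genes (CPM) in the 5 fibroblast clusters, with bars for the sum over all libraries and points for single libraries with at least 20 cells in the cluster. *Bmp2* and *Bmp7* are high in clusters 0 and 2, and *Gdf10* (202 CPM) and *Fst* (435 CPM) are highest in cluster 1.

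The first comparison asked what E2 did in the ovariectomized gland. A gene counted as higher or lower in a compartment when the CPM ratio, with 1 UMI added to each sum, was at least 2 or at most 0.5 and the gene had at least 50 UMIs over both libraries. Of 22 gene and compartment pairs of the family with enough UMIs, 0 were higher and 3 lower in OVX_E2 than in OVX, beside 2.73% higher and 5.58% lower among all 30128 pairs of any gene. The 3 were *Gdf10* and *Inhbb* in fibroblasts and *Fst* in L-Hor. The median log2 ratio of the 22 pairs was -0.28, and that of all pairs was -0.08.

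*Gdf10* in fibroblasts was 61.6 CPM in OVX_E2 and 125 in OVX, a ratio of 0.496 (0.443–0.551). The share of cluster 1, where *Gdf10* was highest, was 11.3% in OVX_E2 and 44.5% in OVX. With the clusters weighted as in OVX, the ratio was 0.656, and within cluster 1 it was 0.718 (0.586–0.861). The difference was thus smaller at equal cluster shares and had the same direction in each of the 5 clusters, although the interval in cluster 4 (0.380–1.44) included 1. *Fst* in fibroblasts had a ratio of 0.717 (0.676–0.760), which was 0.931 at the cluster shares of OVX.

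The other fibroblast ligands did not pass 2-fold with E2. *Tgfb2* was higher in OVX_E2, with a ratio of 1.44 (1.27–1.65), and 1.86 at the cluster shares of OVX. *Bmp2* had a ratio of 0.794 (0.696–0.902), which turned to 1.28 at those shares, so its direction depended on how the clusters were weighted. *Bmp4* had 0.626 (0.498–0.771), and *Bmp7* 0.999 (0.885–1.12). No interval was computed for the ratios at the cluster shares of OVX, for these genes or the others of this comparison. Clusters 1 and 2, the largest in OVX, weigh most in them and held only 106 and 61 fibroblasts in OVX_E2. Since the clusters followed the libraries in part, cluster shares and condition cannot be told apart.

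*Inhbb* in fibroblasts was 2.24 CPM in OVX_E2 (15 UMIs) and 6.55 in OVX (90 UMIs), a ratio of 0.361 (0.184–0.594). Of the 90 UMIs in OVX, 25 came from the 110 cells of cluster 3, where the level was 51.3 CPM, against 4.39 to 6.31 CPM in the other clusters of OVX and 2.33 CPM in cluster 3 of OVX_E2. *Bmp4* in OVX was also highest in cluster 3, with 96.5 CPM from 47 of 366 UMIs, and had 11.3 to 31.6 CPM in the others. Among the clusters made from OVX alone, 1 cluster of 107 cells, led by *Saa3*, *Crabp1* and *Mfap4*, had 54.7 CPM of *Inhbb* and 107 of *Bmp4*. At the cluster shares of OVX the *Inhbb* ratio was 0.415.

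*Fst* in L-Hor was 8.59 CPM in OVX_E2 and 32.3 in OVX, a ratio of 0.261 (0.159–0.454). It rests on 43 and 25 UMIs, and the fibroblast markers in L-Hor moved with it, at 1714 and 2738 CPM. Other pathway genes of L-Hor were lower in the same comparison. *Id2*, an inhibitor of basic helix-loop-helix factors that BMPs induce, was 49.3 against 191 CPM, and *Thbs1*, which activates latent TGF-β, was 9.99 against 36.2. *Tgfbr1* and *Tgfbr3*, receptors of TGF-β, had ratios of 0.463 and 0.472, and the matrix and antagonist genes *Fbn1*, *Ltbp1* and *Fstl1* had 0.481, 0.351 and 0.485. The median ratio of all genes in L-Hor was 0.82 in this comparison, a log2 shift of -0.29 that bears on each of these values. *Fstl1*, *Fbn1*, *Tgfbr3* and *Ltbp1* were highest in fibroblasts, at 1082, 449, 225 and 133 CPM over the summed libraries. The part of fibroblast RNA, whose markers were lower in the L-Hor cells of OVX_E2, was not tested for these genes. In fibroblasts, *Tgfbi*, which TGF-β induces, had a ratio of 0.322 (0.285–0.361), and *Smad6*, an inhibitory SMAD, had 0.432.

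*Gdf10* and *Inhbb* were, of the 10 family genes, those past 2-fold in fibroblasts in this comparison, and RefSeq promoter windows were at hand for both. The 250 bases before the start of each gene are shown 5′ to 3′ on the strand of the gene (GRCm38.p6), with the GC-box letters GGGCGG, or CCGCCC where the motif is on the other strand, in capitals. The *Gdf10* window is chr14:33923337-33923586 on the plus strand and the *Inhbb* window is chr1:119422249-119422498 on the minus strand.
Gdf10: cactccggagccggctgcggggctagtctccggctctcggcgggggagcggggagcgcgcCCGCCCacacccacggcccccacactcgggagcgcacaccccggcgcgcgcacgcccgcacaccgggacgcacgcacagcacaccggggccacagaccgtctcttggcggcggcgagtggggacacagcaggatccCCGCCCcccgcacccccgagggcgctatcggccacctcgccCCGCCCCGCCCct
Inhbb: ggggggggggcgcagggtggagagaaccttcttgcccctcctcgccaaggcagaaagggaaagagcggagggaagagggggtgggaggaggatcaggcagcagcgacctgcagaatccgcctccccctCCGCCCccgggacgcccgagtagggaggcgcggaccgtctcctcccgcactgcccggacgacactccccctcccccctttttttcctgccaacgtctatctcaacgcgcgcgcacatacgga
The windows were rich in G and C, at 78.8% for *Gdf10* and 68% for *Inhbb*, with 35 and 21 CpG pairs. *Gdf10* held 4 GC-box matches, a pair of which share a base, and *Inhbb* held 1. Of 32851 windows of the same length, 32.7% held a GC box on either strand. No match was found in either window, on either strand, for the estrogen response element (GGTCA and TGACC with 3 bases between them), its single arm AGGTCA, or the progesterone and glucocorticoid response element (GNACA and TGTNC with 3 bases between them), which 0.0639%, 14.0% and 0.387% of all windows held.

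**Figure D4:**
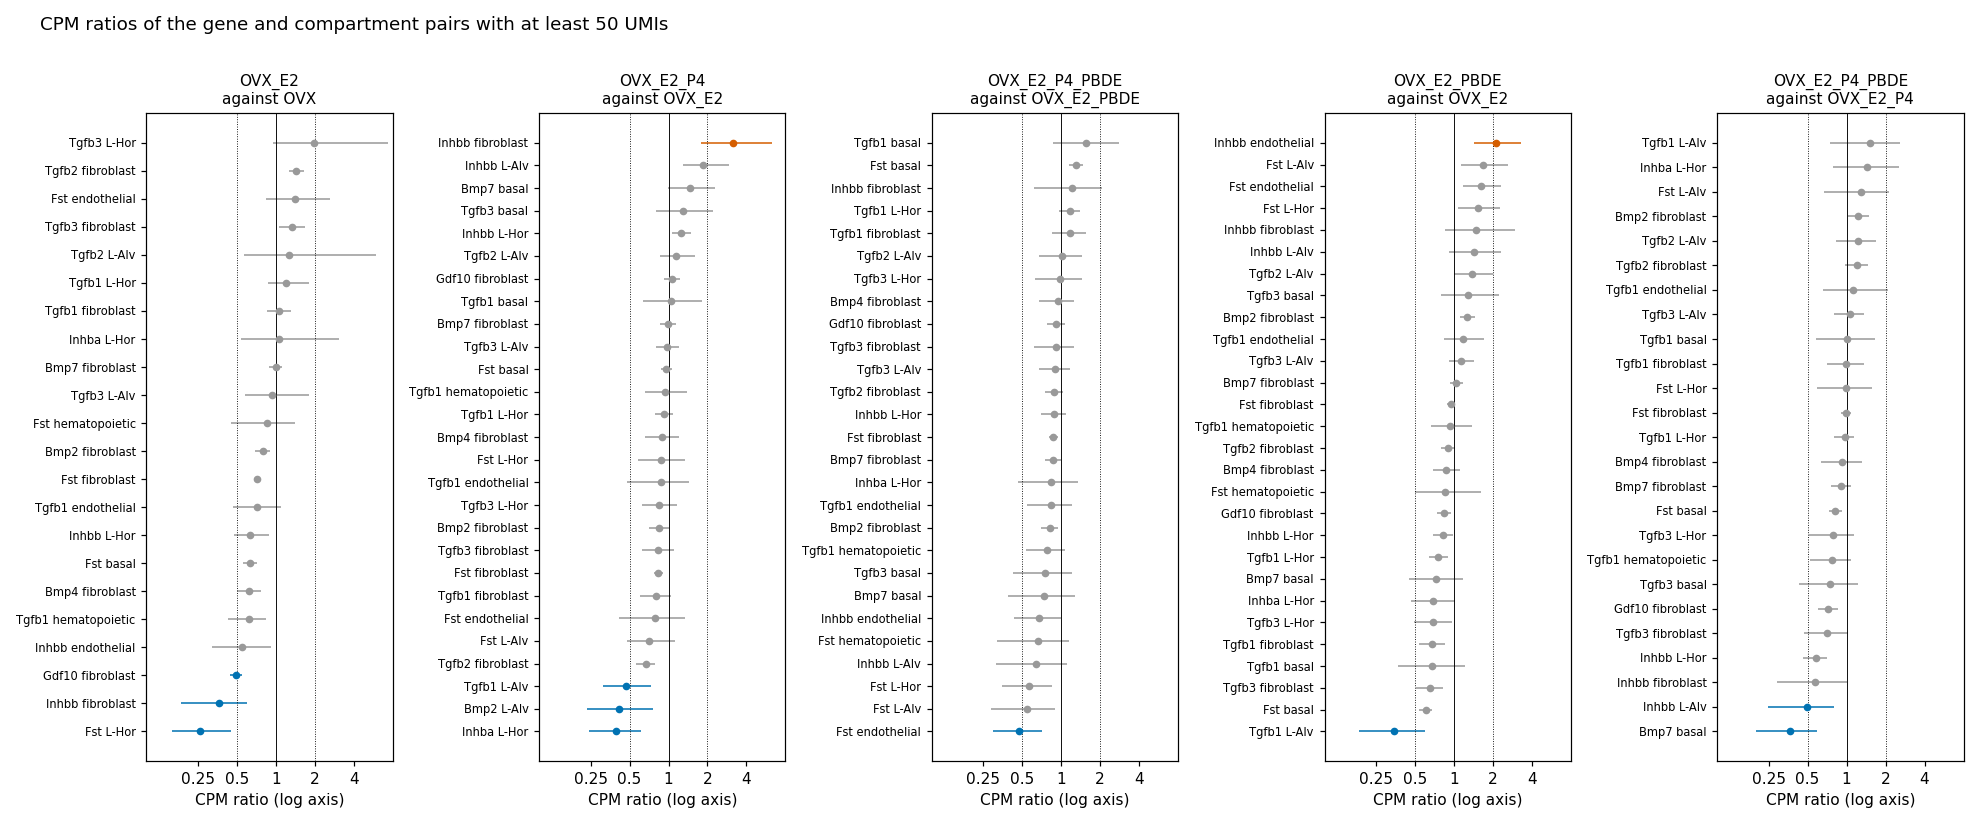
CPM ratios (log axis) of the family's gene and compartment pairs with at least 50 UMIs in 5 comparisons, with conditional binomial 95% intervals that cover counting error only. Dotted lines mark 0.5 and 2. Pairs at least 2-fold lower are blue, such as *Gdf10* in fibroblasts (0.496) with E2, and pairs at least 2-fold higher are orange, such as *Inhbb* in fibroblasts (3.13) with P4 added to E2.

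The next comparisons asked what P4 added to E2. Without PBDE, 1 of 27 pairs was higher and 3 were lower in OVX_E2_P4 than in OVX_E2, beside 1.16% higher and 1.13% lower among all pairs. *Inhba* in L-Hor, the cells that carry the receptors of both hormones, was 4.21 CPM with P4 (31 UMIs) and 10.8 without (54 UMIs), a ratio of 0.395 (0.242–0.618). It was 0.616, and no longer past 2-fold, when the 20% highest Scrublet scores were left out in place of the multiplet clusters. In that setting, barcodes of the multiplet clusters with lower scores were counted as L-Hor or L-Alv. *Inhbb* in L-Hor was 56.2 and 44.7 CPM, a ratio of 1.25 (1.06–1.48) in the other direction.

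*Inhbb* in fibroblasts was 7.30 CPM with P4 and 2.24 without, a ratio of 3.13 (1.77–6.34), and 2.92 at the cluster shares of OVX_E2. L-Hor markers in fibroblasts were at 4.63% and 2.80% of their L-Hor level in these libraries, a share at which *Inhbb* RNA of L-Hor would come to 2.60 and 1.25 CPM. In L-Alv, *Tgfb1* was 9.29 CPM with P4 and 19.6 without, a ratio of 0.469 (0.311–0.728). It was 0.602 with the Scrublet scores in place of the multiplet clusters. *Bmp2* in L-Alv was 4.65 and 11.1 CPM, a ratio of 0.415 (0.234–0.763). *Nbl1*, a BMP antagonist, and *Ctgf*, which TGF-β induces, were lower in L-Alv as well, at ratios of 0.456 and 0.372, as was the BMP target *Id1* in L-Hor at 0.427. *Nbl1* was highest in fibroblasts, at 495 CPM over the summed libraries. The fibroblast markers in L-Alv had, on average, 0.017 of their highest cluster level with P4 and 0.022 without. Their part in the *Nbl1* ratio was not tested. The hematopoietic markers, of the compartment where *Tgfb1* was highest, stood in L-Alv at 70.5 CPM in OVX_E2, 59.0 in OVX_E2_P4 and 103 in OVX_E2_PBDE, and their part in the *Tgfb1* values was not tested.

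With PBDE in both libraries, 0 of 27 pairs were higher and 1 was lower in OVX_E2_P4_PBDE than in OVX_E2_PBDE, beside 1.17% higher and 0.886% lower among all pairs. The pair was *Fst* in endothelial cells, at 82.9 CPM against 179 (28 and 113 UMIs), a ratio of 0.475 (0.295–0.705). It was 1.58 when cells above 5% of mitochondrial UMIs were left out, so its direction rested on that limit. *Inhba* in L-Hor was 6.01 and 7.45 CPM in this comparison, and *Inhbb* in fibroblasts had a ratio of 1.21 (0.617–2.08), against 3.13 without PBDE. *Tgfb1* in L-Alv was 13.3 and 6.59 CPM, in the direction opposite to that without PBDE, with 14 and 19 UMIs. Whether the P4 ratios differ with PBDE was not tested, for want of replicates.

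The last comparisons asked what PBDE added to the hormones. With E2 alone, 1 of 28 pairs was higher and 1 lower in OVX_E2_PBDE than in OVX_E2, beside 1.36% higher and 1.59% lower among all pairs. *Inhbb* in endothelial cells was 147 CPM (93 UMIs) against 68.7 (32 UMIs), a ratio of 2.11 (1.42–3.32). *Fbn1*, which encodes the microfibril protein fibrillin-1, was higher in the same cells, at 90.4 against 30.0 CPM (57 and 14 UMIs). It was highest in fibroblasts, at 449 CPM over the summed libraries, and the part of fibroblast RNA in this ratio was not tested. The endothelial cluster held 10 pericytes among 72 cells in OVX_E2_PBDE and 3 among 44 in OVX_E2. *Tgfb1* in L-Alv was 6.59 CPM against 19.6, a ratio of 0.345 (0.183–0.595). This ratio and the one with P4 and no PBDE share the OVX_E2 library, with 39 UMIs, as denominator and are not independent.

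With E2 and P4, 0 of 25 pairs were higher and 2 were lower in OVX_E2_P4_PBDE than in OVX_E2_P4, beside 1.36% higher and 2.3% lower among all pairs. *Inhbb* in L-Alv was 13.3 CPM against 28.8, a ratio of 0.493 (0.248–0.795) that was 0.584 as a mean over cells. In these cells *Id2* was also lower, at a ratio of 0.397, and *Id3*, a BMP target, and *Fbn1* were higher at 2.20 and 2.05. *Fbn1* was highest in fibroblasts, at 449 CPM over the summed libraries. The fibroblast markers in L-Alv had, on average, 0.032 of their highest cluster level in OVX_E2_P4_PBDE and 0.017 in OVX_E2_P4. Their part in the *Fbn1* ratio was not tested. *Inhbb* in endothelial cells, with fewer than 50 UMIs, was 97.8 CPM (33 UMIs) against 58.7 (12 UMIs). The endothelial cells of OVX_E2_P4 held more luminal marker RNA than those of the other libraries, 2343 CPM against 154 to 933.

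*Bmp7* in basal cells was 19.8 CPM in OVX_E2_P4_PBDE against 56.6 in OVX_E2_P4, a ratio of 0.366 (0.198–0.588). The basal cells of the PBDE library had fewer basal marker UMIs, 6797 against 11954 CPM, and more L-Alv marker UMIs, 2262 against 586 CPM. Per UMI of the basal markers the *Bmp7* ratio was 0.643. *Fst* in basal cells moved with the same markers. Its ratio for OVX_E2_PBDE against OVX_E2 was 0.608, and 0.93 per UMI of the basal markers. For OVX_E2_P4_PBDE against OVX_E2_P4 it was 0.820, and 1.44 per UMI of the basal markers, so that its direction rested on the scaling. Per 1000 of these UMIs *Fst* had 64.1 UMIs in OVX, 54.8 in OVX_E2, 53.7 in OVX_E2_P4, 50.9 in OVX_E2_PBDE and 77.4 in OVX_E2_P4_PBDE. *Twsg1*, *Ltbp2* and *Id2* were lower in the basal cells of this comparison as well, at 0.453, 0.369 and 0.263. Per UMI of the basal markers these ratios were 0.796, 0.649 and 0.462, and *Id2* alone of the 3 was past 2-fold.

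The rest of the pathway was described by 6 lists of 79 genes. Among 13 receptors, the highest levels were those of the co-receptor *Eng* in endothelial cells (299.7 CPM) and of *Tgfbr2* (280.4) and *Tgfbr3* (225) in fibroblasts, all over the 5 libraries summed. Of the SMADs, the inhibitory *Smad7* had 109 CPM and *Smad5* 46.5 in endothelial cells, and *Smad1* had 61.4 in basal cells. Antagonists were led by fibroblasts in 7 of the 9 genes with at least 100 UMIs, with *Fstl1* at 1082 CPM and *Nbl1* at 495, while the decoy receptor *Bambi* had 194 CPM in endothelial cells. Of all 12741 genes with at least 100 UMIs, fibroblasts led 15.4%.

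Genes of TGF-β latency were led by *Fbn1* (449 CPM) and *Ltbp1* (133) in fibroblasts and by *Thbs1* (443) in basal cells. Among 20 other ligands, 3 had no UMI, and *Gdf11* and *Gdf15* in endothelial cells and *Lefty1* in fibroblasts did not pass 30.1 CPM. Response genes were highest in endothelial cells for *Id3* (1704 CPM) and *Id1* (1180), and in hematopoietic cells for *Id2* (546). Endothelial cells led 4 of the 11 receptors and 5 of the 7 SMADs with at least 100 UMIs, beside 34.6% of all genes with that many.

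With E2, beside the 2.73% higher and 5.58% lower among all pairs, the receptors had 0 pairs higher and 6 of 32 lower, latency genes 0 and 8 of 34, antagonists 0 and 4 of 24, SMADs 1 and 1 of 19, response genes 2 and 8 of 55, and other ligands none of 5. The medians of these lists on the log2 scale were between -0.43 and 0.37, beside -0.08 for all pairs. The lower pairs include *Tgfbr1*, *Tgfbr3*, *Fbn1*, *Ltbp1*, *Thbs1* and *Fstl1* in L-Hor, where the median ratio of all genes was 0.82. Fibroblast marker RNA in L-Hor was also lower in OVX_E2 than in OVX, and the counts were adjusted for neither. In the other comparisons at most 3 pairs of a list were higher and at most 3 lower. With P4 and no PBDE, the receptors had 0 pairs past 2-fold of 39 and the SMADs 1 of 24, beside 1.16% higher and 1.13% lower among all pairs. With PBDE added to E2 alone, antagonists and latency genes had 3 higher each, of 28 and 38, beside 1.36% higher among all pairs.

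Genes whose levels followed the family members most closely were sought over 34 profiles, each a compartment of a library with at least 20 cells (proliferating luminal cells included), by the correlation of log2(CPM + 1). These profiles share libraries and compartments, and the correlations mostly restate which compartment is high. The closest were *Hhex* for *Tgfb1* (r = 0.894), *Prkcdbp* for *Tgfb2* (0.892), *Muc15* for *Tgfb3* (0.891), *Ebf2* for *Bmp2* (0.912), *Cpz* for *Bmp4* (0.815) and *Vcan* for *Bmp7* (0.938). *Inhba* was nearest to *Gm15856* (0.885), *Inhbb* to *Tspan15* (0.904), *Gdf10* to *Loxl2* (0.889) and *Fst* to *Lhfp* (0.953). Within the family, the closest pairs were *Gdf10* with *Bmp2* (0.662) and with *Bmp4* (0.635).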

How the data were processed

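Per the labels and the submitters' processing notes, the authors made 10x Genomics 3′ libraries (v2 chemistry) and counted UMIs per gene and barcode with Cell Ranger 2.0.0 on mm10. The deposited counts were whole numbers without normalization, and gene positions were taken from GENCODE M21. Barcodes with at least 500 genes, at least 1000 UMIs and at most 10% mitochondrial UMIs were clustered library by library in Seurat 5.3.0 (R 4.3.3) with 2000 variable genes, 10 principal components and resolutions of 0.3 (OVX) or 0.5, after the study's settings. The 89 family and pathway genes were kept out of the variable genes. Clusters were named from 86 markers with a score of at least 0.25, and 163 to 514 barcodes per library in multiplet clusters were set aside, as were proliferating luminal cells. A multiplet cluster of 250 barcodes in OVX_E2_P4 scored 0.639 for L-Hor and 0.375 for L-Alv. It was led by *Hamp*, *Fxyd2* and *Dmbt1*, with no compartment marker among its leading genes. Its own part in the L-Hor ratios with P4 was not tested. Total and median depth differed between libraries, with medians of 5345 to 8698 UMIs per barcode, so shares of cells were thinned and levels scaled to CPM. Ratios compared pairs of libraries with no test, and their code was tested on simulated data. All 10 genes were named whatever their values, with the 3 highest genes of each list, list genes past 2-fold beside a family gene, and the closest profiles. The family, lists and comparisons were chosen with earlier results of these data known. Marker splits, fibroblast levels at equal cluster shares, basal levels per marker and the comparison with fibroblast markers were chosen after seeing the data. Reads were not used here.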

Additional observations from a re-analysis of the deposited data

How the results depend on the processing

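No paired analysis was possible because each group is 1 library. Leaving out a replicate was not possible for the same reason. Counts of family pairs past 2-fold depended on the limits. With the 20% highest Scrublet scores left out in place of multiplet clusters, the counts were 6 for OVX_E2 against OVX, 2 for OVX_E2_P4_PBDE against OVX_E2_PBDE, 1 for OVX_E2_PBDE against OVX_E2 and 4 for OVX_E2_P4_PBDE against OVX_E2_P4, where the text gives 3, 1, 2 and 2. With at least 20 UMIs they were 8 for OVX_E2 against OVX, 7 for OVX_E2_P4 against OVX_E2, 3 for OVX_E2_P4_PBDE against OVX_E2_PBDE and 5 for OVX_E2_PBDE against OVX_E2. With at least 100 UMIs they were 0 for OVX_E2_P4 against OVX_E2, where the text gives 4, and 1 for OVX_E2_PBDE against OVX_E2. The ratio of *Fst* in endothelial cells for OVX_E2_P4_PBDE against OVX_E2_PBDE turned to 1.58 at a mitochondrial limit of 5%, which left 0 pairs past 2-fold in that comparison. For OVX_E2_P4_PBDE against OVX_E2_P4, the mean over cells and median centring each left 1 pair. The cause was not tested in any of these. Of 760 ratios under other settings, 739 stayed within the interval of the ratio in the text, 20 moved outside it and 1 turned direction. The 739 include ratios that could hardly move. Adding multiplets to L-Hor changes L-Hor ratios only, and at a clustering resolution of 1 most compartments kept the same number of cells. Of the 20, 13 moved with the Scrublet scores. Of 180 levels over the summed libraries, 25 moved, 18 of the 60 with the Scrublet scores and 7 of the 60 with multiplets added to L-Hor. The latter setting can change L-Hor levels only, so all 7 are L-Hor levels and the levels of other compartments were fixed. *Inhba* in L-Hor and *Tgfb1* in L-Alv with P4, and *Inhbb* in L-Alv with PBDE, were past 2-fold in 4 of 6 alternatives, with highest ratios of 0.616, 0.602 and 0.584. For the L-Alv pairs, adding multiplets to L-Hor could not change the ratio. A clustering resolution of 1 left the number of L-Alv cells unchanged in every library, so these settings say little about the L-Alv pairs. At the cluster shares of the denominator library, 11 of 45 fibroblast ratios moved outside their interval, and per basal marker UMI 7 of 17 basal ratios did.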
